A study of Mus musculus with 65 samples.

Results

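Bone from the tibia of old mice was compared with tibia bone of very old mice, 18 against 28 months of age, on Affymetrix mouse exon arrays. The comparison holds 10 of the 65 arrays of the series, 5 per age, chosen by the tissue and age in the sample titles and by no measured value. All 10 mice were untreated wild-type C57BL/6J males, and each array held total RNA of 1 tibia sample from 1 mouse. Most of these mice also gave skeletal muscle and ventral skin, whose arrays of both ages serve below to show where bone differed, and 5 mice of 4 months gave the tibia samples used as a young reference. Because each mouse was killed at a single age, every difference is one between separate animals, and animals of 28 months are those that lived that long.

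A tibia sample is more than mineral. Osteoblasts lay down a collagen matrix and mineralize it, osteocytes are the former osteoblasts buried in it, and osteoclasts, which are multinucleated relatives of macrophages, dissolve it. The cavity is filled with marrow, where red cells, granulocytes, monocytes, platelets and B cells are made and where fat cells accumulate in age. Bone homogenized whole therefore gives RNA of all these cells at once. In such a mixed tissue, fewer cells of a type and less RNA per cell cannot be told apart.

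Gene values were the mean log2 signal of the probe sets that carry 1 gene symbol, which gave 15830 genes. The tissue label was borne out by the markers of bone and marrow. Ibsp, a sialoprotein of mineralizing matrix, averaged 10.7 over the bone arrays of all ages and 3.23, 3.04, 2.92 and 2.93 in muscle, thymus, skin and fat, and the neutrophil gene Ngp averaged 12.5 in bone. Of the cartilage markers, Acan and Col10a1 were near the floor of the arrays, with means of 3.42 and 3.26, while Col2a1 and Comp averaged 6.5 and 5.38 in bone and at most 4.8 and 3.93 in the other tissues. The epidermal keratins Krt14, Krt5 and Krt10 averaged 3.14, 3.78 and 4.26 in bone. RNA of skeletal muscle was present in unequal amounts. The mean of 18 muscle genes ranged from 6.59 to 10.44 over the 18-month arrays and from 7.49 to 9.90 over the 28-month arrays, with 18-month replicates 3 and 4 lowest. The median change of the list was 0.62, with 14 genes higher and 4 lower at 28 months, and 0.98 without 28-month replicate 5. None of the 18 genes passed the test between ages by limma or had an unadjusted p below 0.05. With such a spread the test cannot show that the ages held equal amounts of muscle RNA.

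One array stood apart. 28-month replicate 5 correlated with the other bone arrays at 0.952 to 0.974 over genes, while the other 9 arrays correlated with each other at 0.966 to 0.995. It was low in red cell genes and in the collagens of bone. Slc4a1, the anion exchanger of the red cell membrane, named after its values were seen, was at 3.90 there and at 11.85, 10.81, 11.14 and 11.57 on the other 28-month arrays. Col1a1, the main collagen of bone, was at 9.25 against 11.56, 12.83, 12.64 and 12.92. Results are therefore given with and without this array wherever it matters.

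In a limma fit of all 13 groups of tissue and age, 385 genes (2.43% of those tested) rose and 277 (1.75%) fell in bone between 18 and 28 months at a Benjamini-Hochberg adjusted p below 0.05. With the further demand of at least a 2-fold change, 118 genes (0.745%) were called higher and 57 (0.36%) lower. At an unadjusted p below 0.05 there were 2508 genes. Without 28-month replicate 5, 204 genes (1.29%) rose and 125 (0.79%) fell, 83 genes (0.524%) were called higher, 73 of them among the 118, and 18 (0.114%) were called lower, 15 of them among the 57. In the fit of the 15 bone arrays alone, 455 genes (2.87%) rose and 141 (0.891%) fell, and without that array 368 (2.32%) and 111 (0.701%). Of the called genes, 100 of the 118 higher genes and 15 of the 57 lower genes were past the adjusted p of this fit. Among the called genes, 86 of the higher ones and 14 of the lower ones had every 28-month array on one side of every 18-month array, a pattern that 3.41% and 2.51% of all genes showed upwards and downwards.

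**Figure D1:**
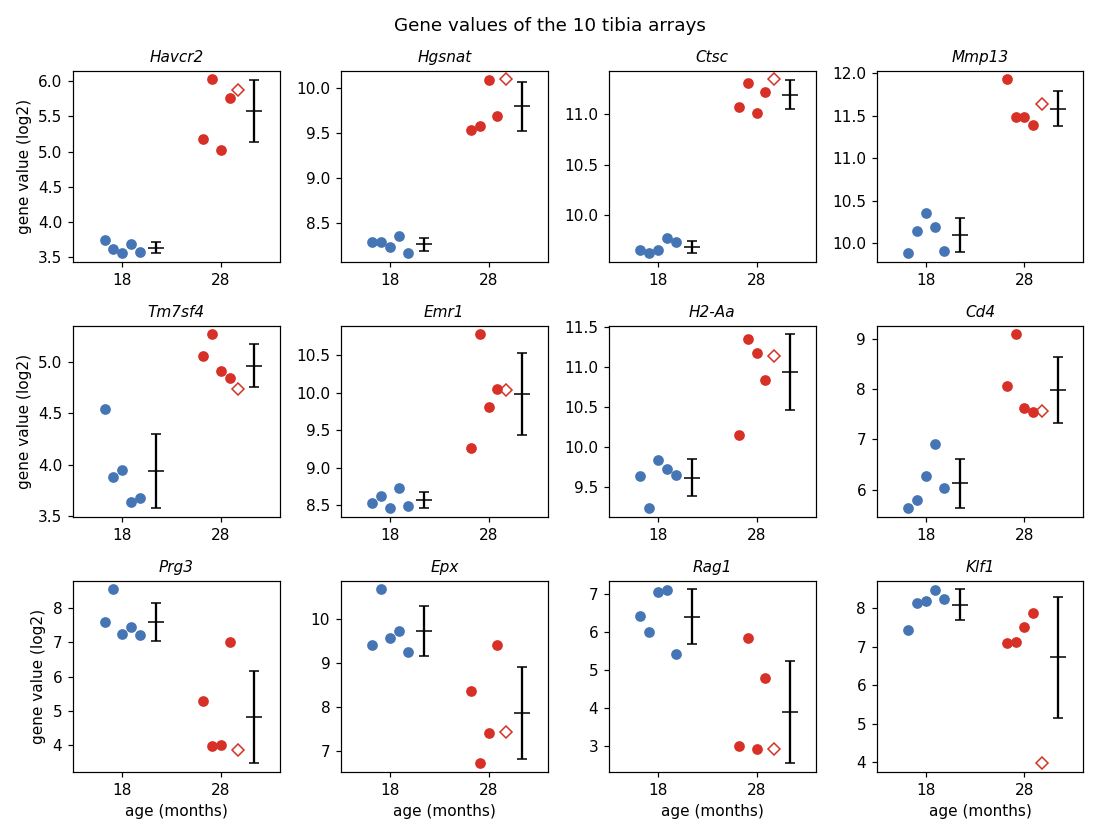
Gene values (log2, y axis) on the tibia arrays of 18 months (blue) and 28 months (red), 5 arrays per age, with the mean and SD in black and 28-month replicate 5 as an open diamond. In Havcr2, Hgsnat, Ctsc, Mmp13, Tm7sf4, Emr1 and Cd4 the ages did not overlap, nor did they in H2-Aa, while for Epx and Rag1 1 28-month array reached the 18-month range and Klf1 was lowest on the array that stood apart.

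Hgsnat, Havcr2 and Ctsc were among the rises with the smallest adjusted p. Hgsnat, the lysosomal acetyltransferase that takes part in the breakdown of heparan sulfate, had values of 8.28, 8.29, 8.23, 8.35 and 8.16 at 18 months and of 9.54, 9.58, 10.08, 9.68 and 10.09 at 28 months. Its lowest 28-month array was more than 1 log2 unit above its highest 18-month array. Hgsnat rose by 1.53 ± 0.12 (SE from the spread shared by all 13 groups, n = 5 per age, adjusted p = 2.39e-14, limma), a 2.9-fold change. Ctsc, the lysosomal protease that activates the granule proteases of myeloid and cytotoxic cells, was at 9.65, 9.62, 9.65, 9.77 and 9.73 and then at 11.07, 11.31, 11.02, 11.22 and 11.35. The 18-month arrays lay within a narrow band and all 28-month arrays lay well above it, a rise of 1.51 ± 0.16 (adjusted p = 4.39e-10). Havcr2, the immune receptor also called TIM-3 of exhausted T cells and of myeloid cells, was near the floor at 18 months with 3.74, 3.61, 3.56, 3.69 and 3.57. It was measured at 5.18, 6.03, 5.02, 5.76 and 5.87 at 28 months, so that no array overlapped, and rose by 1.94 ± 0.15 (adjusted p = 3.2e-14). Without 28-month replicate 5 the rises were 1.46, 1.47 and 1.87 in Hgsnat, Ctsc and Havcr2, each still past the test.

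Among genes of the cells that make bone, matrix-degrading and mineral-binding products rose while Col1a1 did not pass. Mmp13, the collagenase of osteoblasts and growth plate, had values of 9.88, 10.14, 10.35, 10.19 and 9.90 at 18 months and 11.93, 11.49, 11.48, 11.39 and 11.64 at 28 months. The ages were clearly separate, with a rise of 1.49 ± 0.13 (2.81-fold, adjusted p = 2.53e-12) that was 1.48 without 28-month replicate 5. Spp1, osteopontin, through which osteoclasts attach to mineral, was at 10.68, 10.79, 11.07, 11.14 and 11.01 and at 12.32, 12.49, 12.10, 12.16 and 12.09. All its 28-month values were again above all 18-month values, and it rose by 1.29 ± 0.30 (adjusted p = 0.00594), though with the median over probe sets in place of the mean the adjusted p was 0.078. Ibsp rose by 0.60 ± 0.14 (adjusted p = 0.00628), with values between 9.82 and 10.62 at 18 months and between 10.23 and 11.42 at 28 months, so the ages overlapped. This call was lost without 28-month replicate 2 (adjusted p = 0.053) and in the fit of bone alone (adjusted p = 0.17). In all, 3 of 20 genes of osteoblasts and bone matrix rose and none fell, beside 2.43% and 1.75% of all genes. The median change was 0.027 against -0.044 over all genes. Col1a1 itself was at 12.10, 12.52, 12.86, 12.57 and 12.23 and at 11.56, 12.83, 12.64, 12.92 and 9.25, a change of -0.62 ± 0.52 with all arrays and of 0.03 without 28-month replicate 5, neither past the test (adjusted p = 0.602 and 0.99).

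Osteocyte genes were less settled. Dmp1, a phosphoprotein that osteocytes make around themselves, was at 6.32, 8.41, 8.72, 9.17 and 8.90 at 18 months and 8.70, 10.07, 8.88, 9.66 and 8.40 at 28 months. Replicate 1 of 18 months was far below the rest and the ages overlapped. The rise of 0.84 ± 0.25 (adjusted p = 0.0383) did not pass without that array (adjusted p = 0.377), without 18-month replicate 2 (adjusted p = 0.0536), without 28-month replicates 2 or 4 (adjusted p = 0.216 and 0.118) or in bone alone (adjusted p = 0.3). Sost, the osteocyte inhibitor of Wnt signalling, ranged from 5.63 to 8.78 at 18 months and from 7.33 to 8.77 at 28 months, with a change of 0.27 ± 0.29 that did not pass (adjusted p = 0.693). Of 9 osteocyte genes, Dmp1 was the only one to pass, beside 2.43% of all genes that rose. Vdr, the receptor of vitamin D, averaged 5.82 ± 0.87 at 18 months and 7.07 ± 0.38 at 28 months (mean ± SD), with 18-month replicate 4 within the 28-month range, and rose by 1.25 ± 0.29 (adjusted p = 0.00494, and 0.0657 in bone alone).

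Osteoclast genes rose in part, by modest changes. Of 17 genes of the list, 8 rose and none fell, beside 2.43% and 1.75% of all genes, with a median change of 0.50. The count was 4 without any one of 18-month replicates 2 and 5 or 28-month replicates 2 and 5, 5 without 18-month replicate 3 or 28-month replicate 3, and 9 in bone alone. Tm7sf4, now named Dcstamp, the membrane protein needed for osteoclast precursors to fuse, was at 4.54, 3.88, 3.95, 3.64 and 3.68 at 18 months and 5.06, 5.27, 4.91, 4.84 and 4.74 at 28 months. Its highest 18-month array, replicate 1, stayed below the lowest 28-month array, and the rise was 1.03 ± 0.11 (adjusted p = 2.04e-09). Oscar, an immunoglobulin-like receptor that helps osteoclasts to differentiate, had values of 4.77, 4.05, 4.09, 3.76 and 4.05 and 5.13, 5.47, 5.12, 5.10 and 4.40. Here 18-month replicate 1 lay above 28-month replicate 5 and the other arrays were separate, with a rise of 0.90 ± 0.13 (adjusted p = 2.56e-06). Tnfrsf11a, which encodes RANK, the receptor through which the osteoclast fate is ordered, rose by 0.63 ± 0.15 (adjusted p = 0.0093) from 4.29 to 4.61 at 18 months to 4.86 to 5.23 at 28 months, although with the median over probe sets its adjusted p was 0.29. Ctsk, the collagen-cleaving protease of the resorbing cell, rose by 1.02 ± 0.31 at the edge of the threshold (adjusted p = 0.0482). Its arrays did not overlap, with 10.12 the highest at 18 months and 10.16 the lowest at 28 months, but the call was lost when any of 18-month replicates 2 to 5 or 28-month replicates 2 to 5 was left out (adjusted p from 0.0706 to 0.158). Acp5, the tartrate-resistant phosphatase by which osteoclasts are stained, went from 9.80 ± 0.31 to 10.41 ± 0.19 (mean ± SD), a change of 0.61 that did not pass with all groups (adjusted p = 0.42) and did in bone alone (adjusted p = 0.0431). Of 10 genes of osteoclast signals, Csf1r, the receptor of the growth factor shared by macrophages and osteoclasts, alone passed, with a rise of 0.95 ± 0.25 (adjusted p = 0.0162, and 0.0578 without 28-month replicate 5).

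With all arrays the macrophage list had the highest median change of all lists. Without 28-month replicate 5 the skeletal muscle list was higher, at 0.98 against 0.82 for macrophages. Of 24 measured macrophage genes, 14 rose and 1 fell, beside 2.43% and 1.75% of all genes, with a median change of 0.91. The count of rises was 10 without 28-month replicate 5, which had the highest mean of the list, and 14 in bone alone with or without that array. Summed as a mean over the list, the 18-month arrays lay between 7.82 and 8.13 and the 28-month arrays between 8.26 and 9.26. Emr1, now Adgre1, which encodes the F4/80 antigen of mature macrophages, was at 8.53, 8.62, 8.47, 8.73 and 8.49 and then at 9.26, 10.77, 9.80, 10.04 and 10.04. The ages were separate, with 28-month replicate 2 the highest, and the rise was 1.42 ± 0.27 (adjusted p = 4.4e-04). Siglec1, the sialic acid receptor of the resident macrophages of marrow, had values of 6.13, 6.16, 6.61, 6.80 and 6.30 and 7.77, 7.72, 7.65, 8.35 and 8.56, again without overlap, and rose by 1.61 ± 0.28 (adjusted p = 1.1e-04). Fcgr1, the high-affinity receptor for IgG, rose by 1.30 ± 0.20 (adjusted p = 2.39e-05) and Ms4a7 by 1.09 ± 0.19 (adjusted p = 1.9e-04). C1qa, a chain of the first complement component, which was named after its values were seen, rose by 1.52 ± 0.32 (adjusted p = 0.00172). The gene that fell was Cx3cr1, the fractalkine receptor of patrolling monocytes, by 0.74 ± 0.22 on the log2 scale (adjusted p = 0.0377), a call lost in bone alone (adjusted p = 0.181) and without any of 18-month replicates 1, 3 and 5 or 28-month replicates 1, 2 and 5 (adjusted p from 0.0668 to 0.177). The remaining 9 genes of the list did not pass, and neither did any of the 29 neutrophil genes, of which 1 had an unadjusted p below 0.05 and whose 2 lists had median changes of 0.064 and -0.054.

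Several of the highest changes were in genes known from macrophages. Apoc1, an apolipoprotein secreted by macrophages and liver, was at 3.45, 3.00, 3.08, 3.09 and 3.29 at 18 months and 7.59, 5.91, 5.49, 5.14 and 7.05 at 28 months. Every 28-month array was at least 1 log2 unit above every 18-month array, with replicates 1 and 5 highest, and the rise was 3.05 ± 0.33 (8.31-fold, adjusted p = 2.17e-09). Msr1, the class A scavenger receptor, had values of 5.02, 4.68, 5.05, 5.07 and 4.76 and 7.09, 6.04, 6.66, 6.42 and 7.93 and rose by 1.91 ± 0.35 (adjusted p = 3.0e-04). Mgl1, a galactose-binding lectin of macrophages, rose by 2.03 ± 0.29 (adjusted p = 2.2e-06) and Clec4a1, another C-type lectin of myeloid cells, by 2.01 ± 0.37 (adjusted p = 3.2e-04). Both were separate between ages, with 28-month values between 5.09 and 6.87 for Mgl1 and between 8.25 and 9.74 for Clec4a1. A4galt, the enzyme that makes the glycolipid globotriaosylceramide, rose by 1.99 ± 0.27 (adjusted p = 1.08e-06), and Mrap, an accessory protein of the receptor for the adrenocorticotropic hormone, by 2.05 ± 0.35 (adjusted p = 1.0e-04).

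**Figure D2:**
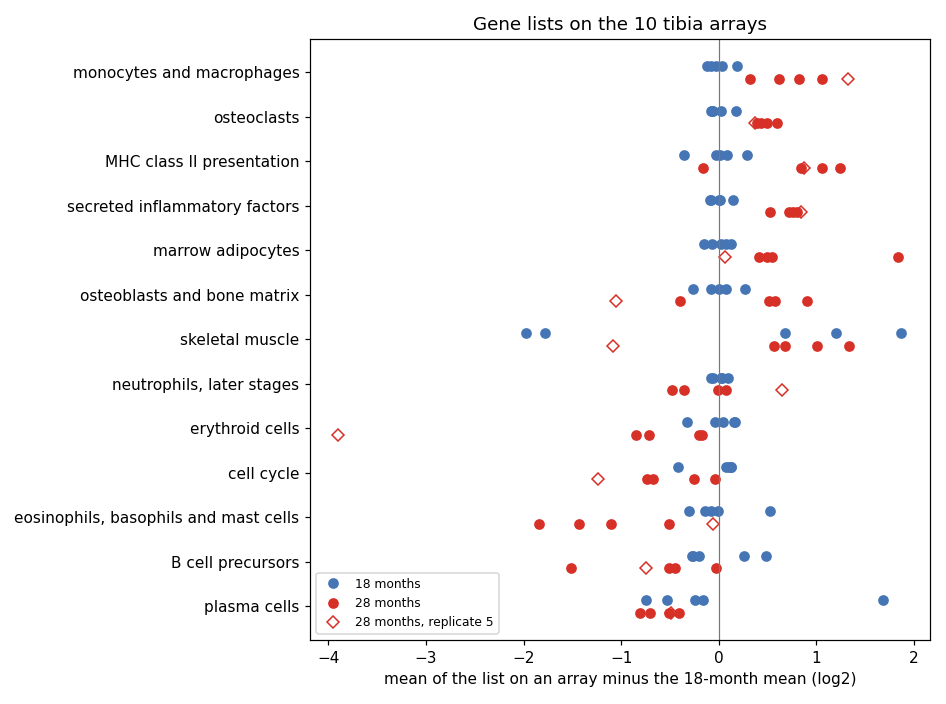
Mean log2 value of 13 gene lists on each tibia array, given as the difference from the mean of the 18-month arrays (x axis, log2), at 18 months (blue) and 28 months (red), with 28-month replicate 5 as an open diamond. The macrophage, osteoclast and secreted factor lists were above 0 on all 28-month arrays, the erythroid list was far lower on the array that stood apart, and the skeletal muscle list spread widely within both ages.

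Chemokines rose with them. Of 30 secreted inflammatory factors, 7 rose and none fell, beside 2.43% and 1.75% of all genes. Their median change was 0.46, and 7 rose also without 28-month replicate 5. Cxcl13, which draws B cells into follicles, was at 4.84, 4.27, 4.66, 5.28 and 5.06 at 18 months and 9.10, 7.10, 7.75, 9.48 and 6.42 at 28 months. All 28-month arrays were higher, with replicate 5 the lowest and replicate 4 the highest of them, and the rise of 3.15 ± 0.78 (adjusted p = 0.00947) was the highest among genes that passed, though its adjusted p was 0.0629 with the median over probe sets. Ccl24, a chemoattractant of eosinophils made by macrophages, had values of 3.32, 3.01, 3.17, 3.24 and 3.22 and 5.19, 5.28, 4.29, 5.81 and 6.75. It went from the floor of the arrays to levels without overlap, and rose by 2.27 ± 0.35 (adjusted p = 1.41e-05). Ccl8 rose by 2.21 ± 0.49 (adjusted p = 0.0028), Ccl12 by 1.62 ± 0.32 (adjusted p = 6.8e-04) and Cxcl16 by 1.25 ± 0.25 (adjusted p = 0.001). All are chemokines, of monocytes for Ccl8 and Ccl12 and of T cells for Cxcl16.

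Genes induced by interferon and the molecules that present antigen to CD4 T cells rose in part. Of 33 interferon-response genes, 5 rose and none fell, beside 2.43% and 1.75% of all genes, with a median change of 0.54. In bone alone 10 rose, and 3 without any one of 18-month replicates 2 to 5 or 28-month replicates 2 and 4. Cxcl9, a chemokine that interferon-gamma induces, was at 5.80, 4.44, 4.70, 4.31 and 4.28 and at 6.03, 7.14, 7.32, 8.16 and 6.11. Replicate 1 of 18 months was the highest of its age and lay just below the lowest 28-month array, and the rise was 2.25 ± 0.44 (adjusted p = 6.7e-04). Gbp2, a guanylate-binding GTPase of cell-autonomous defence, had values of 6.02, 5.36, 5.51, 5.33 and 5.23 and 6.94, 8.02, 7.32, 8.40 and 7.19, with a rise of 2.08 ± 0.41 (adjusted p = 7.6e-04). Iigp1, a GTPase of the same defence, rose by 1.75 ± 0.41 (adjusted p = 0.00496) and Ubd, a ubiquitin-like protein induced by interferon-gamma and TNF, by 2.16 ± 0.30 (adjusted p = 1.99e-06). Gbp3 rose by 1.15 ± 0.34 (adjusted p = 0.0368), a call lost when any of 18-month replicates 2 to 5 or 28-month replicates 2, 4 and 5 was left out (adjusted p from 0.0549 to 0.129). Guanylate-binding proteins share sequence, so signal may be divided among them.

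Of 10 genes of MHC class II presentation, 4 rose and none fell, beside 2.43% and 1.75% of all genes, with a median change of 0.86. H2-Aa, the alpha chain of the I-A molecule, was at 9.64, 9.24, 9.85, 9.72 and 9.65 and at 10.15, 11.35, 11.18, 10.84 and 11.14. The ages did not overlap, although 28-month replicate 1 was close to the 18-month arrays, and the rise was 1.31 ± 0.27 (adjusted p = 0.00107). H2-Eb1, the beta chain of the I-E molecule, rose by 1.10 ± 0.24 (adjusted p = 0.00279) and H2-DMa, which helps to load peptides, by 0.96 ± 0.18 (adjusted p = 2.9e-04). H2-Ab1, the partner chain of H2-Aa, rose by 1.19 ± 0.32 (adjusted p = 0.0199) and did not pass without 18-month replicate 2 or 28-month replicates 2 or 5 (adjusted p = 0.0545, 0.0686 and 0.0563). Ciita, the coactivator that the class II genes depend on, named after its values were seen, changed by 0.25 ± 0.25 (adjusted p = 0.669).

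Because H2-Aa and H2-Eb1 moved together, as did Gbp2 and Gbp3, the promoter sequence of these genes is shown, from RefSeq on GRCm38.p6. Each run is the 150 bases before the annotated start, 5′ to 3′ on the gene's strand. In the class II genes the capitals mark CCAAT or its reverse complement ATTGG, the pentamer of the Y box to which NF-Y binds, and in the guanylate-binding genes they mark TTTC, any 2 bases and TTTC again, or the same with GAAA on the other strand, the core of the interferon-stimulated response element.
H2-Aa, chr17:34287824-34287973, minus strand: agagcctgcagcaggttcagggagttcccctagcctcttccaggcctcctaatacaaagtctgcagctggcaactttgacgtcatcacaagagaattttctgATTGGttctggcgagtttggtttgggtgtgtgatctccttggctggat
H2-Eb1, chr17:34305717-34305866, plus strand: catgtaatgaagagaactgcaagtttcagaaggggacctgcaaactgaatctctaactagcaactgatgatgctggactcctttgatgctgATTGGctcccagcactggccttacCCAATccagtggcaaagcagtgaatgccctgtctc
Gbp2, chr3:142620513-142620662, plus strand: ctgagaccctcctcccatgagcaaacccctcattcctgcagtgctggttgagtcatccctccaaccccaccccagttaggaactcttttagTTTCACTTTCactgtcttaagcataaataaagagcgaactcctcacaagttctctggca
Gbp3, chr3:142559894-142560043, plus strand: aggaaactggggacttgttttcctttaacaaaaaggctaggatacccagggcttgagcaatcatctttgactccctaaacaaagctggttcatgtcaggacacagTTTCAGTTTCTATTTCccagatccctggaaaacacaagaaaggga
The pentamer began 48 bases before the start in H2-Aa and 59 and 35 bases before it in H2-Eb1, and 25.3% of 27025 promoters held it within this length. The interferon element began 59 bases before the start in Gbp2. In Gbp3 2 overlapping matches began 45 and 39 bases before it, and 1.6% of promoters held a match. Ubd and Cxcl9 had no match to these letters in this window and neither had H2-DMa to the pentamer. A match is a description of the sequence, and binding was not measured.

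Among lymphocyte genes, some of T and cytotoxic cells rose and some of early B cells fell. Cd4, the coreceptor of helper T cells that some macrophages also carry, was at 5.65, 5.79, 6.27, 6.90 and 6.03 at 18 months and 8.07, 9.09, 7.63, 7.55 and 7.56 at 28 months. The ages were separate, and the rise was 1.85 ± 0.37 (adjusted p = 0.00102). Beside the counts in this paragraph, 2.43% of all genes rose and 1.75% fell. Of 22 T cell genes, 2 rose and none fell, with a median change of 0.50. The count was 7 without 28-month replicate 1 and 1 without any of 18-month replicates 2 to 5 or 28-month replicates 2, 3 and 5. The defining gene Cd3e, named after its values were seen, changed by 1.09 ± 0.36 and did not pass (adjusted p = 0.0706, and 0.0468 in bone alone). Among 18 genes of cytotoxic and NK cells 5 rose and none fell, 3 without 28-month replicate 3. Gzmk, the granule protease of a memory-like CD8 T cell, rose by 0.81 ± 0.16 (adjusted p = 7.3e-04, and 0.0707 in bone alone), with 18-month replicate 1 at 4.61, the other 18-month arrays up to 3.33 and the 28-month arrays between 3.95 and 4.69. Klrk1, which encodes the activating receptor NKG2D, rose by 0.78 ± 0.18 (adjusted p = 0.00367). Gzmb rose by 0.82 ± 0.21 (adjusted p = 0.0142), yet 28-month replicate 3 was at 5.64 and the other 28-month arrays between 3.12 and 3.50. The Gzmb call was lost without replicate 3 (adjusted p = 0.128) and in bone alone (adjusted p = 0.223).

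Some genes of B cell precursors fell. Rag1, the recombinase that cuts antigen receptor genes, was at 6.43, 5.99, 7.05, 7.11 and 5.42 at 18 months and 3.01, 5.83, 2.91, 4.80 and 2.92 at 28 months. Replicates 1, 3 and 5 of 28 months were at the floor, replicate 4 was low and replicate 2 lay within the 18-month range. It fell by 2.50 ± 0.29 on the log2 scale (adjusted p = 1.64e-08, and 0.0191 in bone alone). Dntt, which adds bases at the joints of rearranged receptors, had values of 4.77, 5.18, 5.83, 5.91 and 4.65 and 3.29, 4.91, 3.15, 4.52 and 3.00, with the same 3 arrays lowest, and fell by 1.50 ± 0.20 (adjusted p = 1.05e-06). Vpreb3, a chaperone of the pre-B cell receptor, fell by 1.62 ± 0.22 (adjusted p = 1.59e-06). These were the 3 of 15 precursor genes that passed, all of them also without 28-month replicate 5, and none rose. Beside the counts in this paragraph, 1.75% of all genes fell. In the fit of the 10 arrays alone Rag1, Dntt and Vpreb3 did not pass (adjusted p = 0.0674, 0.107 and 0.0665). The median change of the list was -0.51. Of 16 genes of mature B cells 2 fell, Bach2, a repressor of the plasma cell fate, by 1.25 ± 0.30 (adjusted p = 0.00713) and Fcrla by 1.44 ± 0.34 (adjusted p = 0.00739, and 0.0536 without 28-month replicate 1, the array lowest in B cell genes). In bone alone Fcrla did not pass (adjusted p = 0.0851).

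Of 15 plasma cell genes 4 fell and none rose in the fit of all 65 arrays, beside 1.75% of all genes that fell. The count moved with single arrays. In the fit of bone arrays alone 0 of the 15 passed by limma, with or without 28-month replicate 5, with 2 at an unadjusted p below 0.05 in each, and the adjusted p was 0.107 for Irf4 and 0.24 for 2010001M09Rik. The mean of the list was 7.96 on 18-month replicate 1, and the other arrays of both ages were lower. Irf4, a factor that plasma cells need, was at 7.66, 5.15, 4.97, 5.86 and 4.52 at 18 months and at most 4.47 at 28 months, below every 18-month array, a fall of 1.28 ± 0.37 (adjusted p = 0.0329) that did not pass without 18-month replicate 1 (adjusted p = 0.259). It also missed the threshold without 18-month replicate 4 or any of 28-month replicates 2 to 5 (adjusted p from 0.0535 to 0.0811). 2010001M09Rik, now named Mzb1, a chaperone of antibody-secreting cells, had 9.69 on 18-month replicate 1 and at most 6.52 on the other 18-month arrays, and its fall of 1.21 (adjusted p = 0.0354) did not pass without that array (adjusted p = 0.35) or without 28-month replicate 1, 4 or 5 (adjusted p from 0.0583 to 0.113). Without 18-month replicate 1, 28-month replicate 4 or 28-month replicate 5, 0 of the 15 genes passed by limma, with 2, 8 and 7 at an unadjusted p below 0.05. There was 1 without 28-month replicate 2 or 3, and 7 without 18-month replicate 5.

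The deepest falls of the comparison, those of Prg3 and Ear6, were in genes of eosinophils. Prg3, a basic protein of eosinophil granules, was at 7.59, 8.54, 7.23, 7.43 and 7.20 at 18 months and at 5.28, 3.97, 4.02 and 3.86 on 28-month replicates 1, 2, 3 and 5. Replicate 4 of 28 months lay just below the 18-month arrays and the other 28-month arrays far below them. The fall was 2.77 ± 0.26 on the log2 scale (6.84-fold, adjusted p = 3.1e-11). In bone alone the SE of Prg3 was 0.49 (adjusted p = 0.00546). Ear6, a ribonuclease of eosinophil granules, had values of 10.88, 12.05, 10.76, 10.88 and 10.54 and 8.61, 7.47, 7.71, 10.52 and 7.13. It fell by 2.73 ± 0.27 (adjusted p = 9.9e-11), with replicate 4 of 28 months again nearest to the 18-month values, and since the Ear genes are near-identical copies the signal cannot be tied to 1 of them. Epx, eosinophil peroxidase, was at 9.41, 10.68, 9.57, 9.74 and 9.25 and 8.37, 6.73, 7.41, 9.40 and 7.44, a fall of 1.86 ± 0.22 (adjusted p = 1.64e-08). Epx did not pass in the fit of the 10 arrays alone (adjusted p = 0.0793). Here 28-month replicate 4 lay inside the 18-month range. Prss34, a protease of basophils and mast cells, fell by 1.21 ± 0.24 (adjusted p = 7.8e-04). Its values of 7.55, 7.67, 6.20, 7.75 and 9.58 at 28 months put replicate 5 above all 18-month arrays, which lay between 8.68 and 9.40, and without that array the fall was 1.67 (adjusted p = 1.04e-09). Alox15, a lipoxygenase of eosinophils and macrophages, fell by 2.19 ± 0.53 (adjusted p = 0.00795, and 0.0852 in the 10 arrays alone). In all, 8 of 15 genes of eosinophils, basophils and mast cells fell and none rose, beside 1.75% of all genes that fell. The median change was -0.73, and 10 fell without 28-month replicate 5. In bone alone 5 fell, and 10 when that array was also left out. Prss34 was among the calls lost in bone alone with all arrays (adjusted p = 0.13).

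Red cell genes had lower values at 28 months, and how much lower depended on 1 array. The mean of the list was 9.06 to 9.56 at 18 months, 8.55 to 9.23 on 4 of the 28-month arrays and 5.50 on replicate 5, so the ages overlapped. Of 26 erythroid genes 17 fell and none rose, beside 1.75% of all genes that fell, with a median change of -1.10. Without 28-month replicate 5, 8 fell and the median change was -0.47. In bone alone 0 passed by limma with all arrays, with 16 at an unadjusted p below 0.05, and 2 passed without that array. The count was 11 without 18-month replicate 3 and 12 to 21 when another array than these was left out. Klf1, the transcription factor of red cell maturation, was at 7.44, 8.15, 8.20, 8.48 and 8.25 and 7.11, 7.13, 7.53, 7.89 and 3.97. Replicate 5 was far below the rest, replicates 1 and 2 were below the 18-month range and replicates 3 and 4 within it. The fall was 1.38 ± 0.30 with it (adjusted p = 0.0021) and 0.69 without it (adjusted p = 0.00228). Uros, an enzyme of haem synthesis, fell by 1.16 and by 0.61 in the same fits, and Add2, a protein of the red cell skeleton, by 1.32 and 0.65. Fn3k, a kinase that removes sugars from proteins and is abundant in red cells, was below the 18-month arrays on every 28-month array, from 6.31 to 6.94 at 18 months and at 5.06, 5.10, 5.22, 5.93 and 2.93 at 28 months. It fell by 1.73 ± 0.24 (adjusted p = 2.02e-06, and 0.0939 in the 10 arrays alone) and without replicate 5 by 1.25 (adjusted p = 9.81e-07). Ypel4 and Cldn13, which were lowest on the same array, fell by 1.71 and 1.66 with all arrays and by 0.83 and 0.68 without it, and neither passed in bone alone (adjusted p = 0.176 and 0.222).

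**Figure D3:**
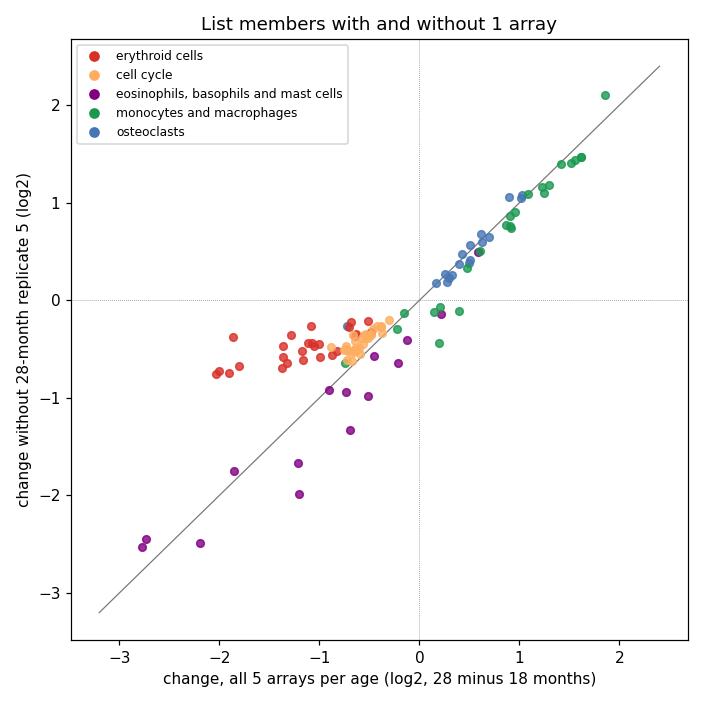
Change between 18 and 28 months (log2) of the measured members of 5 gene lists, with all 5 arrays per age (x axis) and without 28-month replicate 5 (y axis), with the line of equality in grey. Erythroid genes lie above the line, at a median of -1.10 with the array and -0.47 without it, while the medians of macrophage genes were 0.91 and 0.82 and those of osteoclast genes 0.50 and 0.41.

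Cell cycle genes were lower as well. All 31 measured genes had a negative change, with a median of -0.61, against 9171 of 15830 and -0.044 over all genes. The 31 genes share the same arrays and are not independent. Beside the count below, 1.75% of all genes fell. Of them 2 passed, Cdc6, which licenses replication origins, at a fall of 0.75 ± 0.19 (adjusted p = 0.00989) and Birc5, survivin, at 0.73 ± 0.19 (adjusted p = 0.0174). Neither passed without 28-month replicate 5 (adjusted p = 0.129 and 0.181), when the median was -0.45 and 4 of the 31 had an unadjusted p below 0.05, or in bone alone (adjusted p = 0.119 and 0.0964), where 4 others of the list did. The count was 4 without 18-month replicate 1 or 28-month replicate 4 and 6 without 28-month replicate 1. The array with the lowest erythroid mean was also the one with the lowest cell cycle mean, and their part in each other was not tested.

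Matrix and growth factor genes changed one by one. Beside the counts below, 2.43% of all genes rose and 1.75% fell. Of 48 genes of collagens and matrix 3 rose. Col14a1, a collagen of the fibril surface, was at 4.08, 4.40, 4.05, 4.54 and 3.96 and at 5.82, 5.76, 5.60, 6.45 and 5.47, and the ages did not overlap, a rise of 1.61 ± 0.34 (adjusted p = 0.00147). Plod1, a lysyl hydroxylase of collagen, rose by 0.87 ± 0.19 (adjusted p = 0.00307), also without overlap. The third was Timp1, an inhibitor of matrix proteases, at 0.98 ± 0.25 (adjusted p = 0.0152), which did not pass without 18-month replicate 4 or 28-month replicate 2 (adjusted p = 0.0534 and 0.155). Timp1 did not pass in bone alone either (adjusted p = 0.134). In the IGF axis 3 of 18 genes rose, 1 without 18-month replicate 3 or 28-month replicate 5. Ghr, the growth hormone receptor, rose by 1.11 ± 0.24 (adjusted p = 0.00259). Igfbp3, a carrier of IGF, rose by 1.56 ± 0.42 (adjusted p = 0.02), with 28-month replicate 5 at 8.95 and the other 28-month arrays between 4.61 and 5.91, and the call was lost without replicate 5 (adjusted p = 0.288). It was also lost without 18-month replicate 3 (adjusted p = 0.0576) and in bone alone (adjusted p = 0.162). In BMP and TGF-beta signalling 6 of 40 genes rose and none fell, 1 without 28-month replicate 5, 2 without 18-month replicate 4 or 5 and 3 without 18-month replicate 3 or 28-month replicate 2. Tgfbr1, the type I receptor, rose by 0.52 ± 0.12 (adjusted p = 0.00439, and 0.0159 without that array). In Wnt signalling 1 of 38 genes rose and 1 fell, close to the shares of all genes, with a median change of -0.018. Lrp6, a coreceptor, rose by 0.44 ± 0.11 (adjusted p = 0.0126, and 0.0554 without 18-month replicate 1). Rspo2, an enhancer of the pathway, fell by 0.66 ± 0.17 (adjusted p = 0.0111, and 0.0778 and 0.0644 without 18-month replicate 4 or 28-month replicate 5). In bone alone Rspo2 did not pass (adjusted p = 0.0801).

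Marrow fat genes varied widely between animals of one age. Of 20 adipocyte genes 3 rose and none fell, beside 2.43% and 1.75% of all genes, with a median change of 0.58. Cfd, the complement factor D secreted by fat cells, was at 5.18, 5.94, 6.88, 7.78 and 7.20 and 8.19, 8.04, 11.07, 8.09 and 7.13. Replicate 3 of 28 months was far above the rest, and the rise of 1.91 ± 0.54 (adjusted p = 0.0282) did not pass without it (adjusted p = 0.226) or without 18-month replicate 1 or 2 (adjusted p = 0.121 and 0.0763). Scd1, a fatty acid desaturase, rose by 1.52 ± 0.44 (adjusted p = 0.0329), likewise lost without that array (adjusted p = 0.245), as it was without 18-month replicates 1 or 2 or 28-month replicates 2 or 4 (adjusted p from 0.0611 to 0.112). Neither Cfd nor Scd1 passed in bone alone (adjusted p = 0.13 and 0.161). Without 28-month replicate 3, 0 of the 20 adipocyte genes passed by limma, with 6 at an unadjusted p below 0.05, and without 18-month replicate 1 there was 1. Of 21 cartilage genes 3 fell, among them Col2a1, the collagen of cartilage, by 0.83 ± 0.20 (adjusted p = 0.00808, and 0.119 without 28-month replicate 5), while in bone alone 0 passed by limma and 9 had an unadjusted p below 0.05. The count was 1 without 18-month replicate 4 or 28-month replicate 5, 5 without 18-month replicate 5 or 28-month replicate 4 and 6 without 18-month replicate 1.

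Several other groups gave no call. None of 62 spliceosome and splicing factor genes passed, with changes between -0.39 and 0.43, and none of 34 respiratory chain genes, 17 ribosomal protein genes, 17 megakaryocyte genes, 18 genes of stem and progenitor cells or 12 genes of MHC class I presentation did, by limma. At an unadjusted p below 0.05 these lists held 2, 0, 0, 5, 1 and 4 genes in that order. Of 17 senescence genes 1 passed, beside 2.43% of all genes that rose. It was Glb1, lysosomal beta-galactosidase, which rose by 0.74 ± 0.20 (adjusted p = 0.0238) and did not pass without 18-month replicates 3 or 5 or 28-month replicates 2 or 5 (adjusted p from 0.0584 to 0.094). Cdkn2a, the cell cycle inhibitor locus of senescent cells, was at 4.37 ± 0.23 and 4.24 ± 0.15 (mean ± SD), a change of -0.13 ± 0.13 (adjusted p = 0.65). Lmna, which encodes lamins A and C, changed by -0.16 ± 0.19 (adjusted p = 0.73) and Nfkb1, a subunit of NF-kB, by 0.12 ± 0.14 (adjusted p = 0.731).

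The tibiae of 4-month mice give the change of the earlier interval beside these changes. Havcr2 averaged 3.42 ± 0.10 at 4 months and 3.63 ± 0.078 at 18 months (mean ± SD, n = 5 each), and its change over that first interval was 0.22 (adjusted p = 0.748). The first-interval changes were 0.16 for Hgsnat, 0.14 for Ctsc, 0.12 for Tm7sf4, 0.32 for Emr1 and 0.23 for H2-Aa, none past the test, beside rises of 1.53, 1.51, 1.03, 1.42 and 1.31 in the second. Rag1 changed by -0.51 and Dntt by -0.025 between 4 and 18 months, and Prg3 by 0.12 and Ear6 by 0.33, again none past the test. From 4 to 28 months Mmp13 rose by 1.15 (adjusted p = 3.09e-09) while Spp1, at 11.53 at 4 months, differed by 0.70 and did not pass (adjusted p = 0.106). The intervals share the 18-month arrays, and the difference between them was not tested. These genes were named for their change in the second interval, which favours a smaller change in the first.

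Muscle and skin of the same ages, mostly from the same mice, show which of these changes differed by tissue. In muscle 1333 genes (8.42%) rose and 769 (4.86%) fell over the same interval, and in skin 1547 (9.77%) and 1517 (9.58%). Of the 662 genes that passed in bone, 399 had a change that differed from that in muscle and 351 one that differed from that in skin, by limma's test of the difference. Over all genes the change was higher in bone than in muscle for 686 (4.33%) and lower for 1166 (7.37%), and higher than in skin for 967 (6.11%) and lower for 854 (5.39%). There were 143 genes that rose in bone and exceeded both tissues, and 112 that fell in bone and lay below both. These counts, like the 399 and 351, rest on genes chosen by the same bone change that enters the contrasts, which favours a difference. In all 3 tissues 7 genes rose and 2 fell. The number to be met by chance was not computed, so these counts do not measure how specific the changes were to bone.

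**Figure D4:**
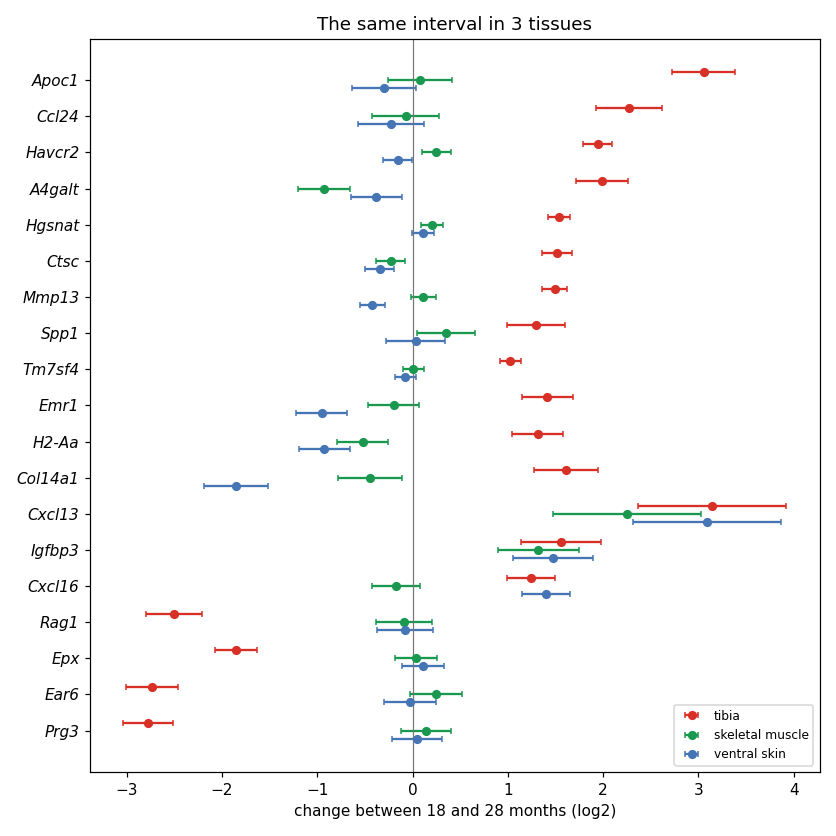
Change between 18 and 28 months (log2, x axis) with its SE for 19 named genes in tibia (red), skeletal muscle (green) and ventral skin (blue), 5 arrays per age and tissue. Apoc1, Havcr2, Hgsnat, Ctsc and Mmp13 rose in tibia with changes of under 0.5 in either direction in the other tissues, whereas Cxcl13 and Igfbp3 had changes of 1.32 or more in all 3.

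Havcr2 changed by 0.25 in muscle and by -0.16 in skin, so that its rise in bone exceeded them by 1.70 ± 0.21 (adjusted p = 6.07e-07) and 2.10 ± 0.21 (adjusted p = 9.67e-10). Ctsc exceeded muscle by 1.74 ± 0.22 (adjusted p = 6.07e-07), Hgsnat exceeded skin by 1.43 ± 0.17 (adjusted p = 3.3e-08) and Mmp13 exceeded skin by 1.92 ± 0.19 (adjusted p = 2.97e-10). Ear6 fell in bone by 2.98 ± 0.38 more than in muscle (adjusted p = 6.07e-07). H2-Aa changed by -0.53 in muscle and -0.93 in skin (differences from bone of 1.84 and 2.24, adjusted p = 0.00139 and 4.5e-05). Col14a1 changed by -0.45 and -1.86 (differences of 2.06 and 3.47, adjusted p = 0.00391 and 1.32e-06). Of the macrophage list 10 of 24 genes exceeded muscle and 12 exceeded skin, and of the osteoclast list 9 and 8 of 17. Over all genes 4.33% exceeded muscle and 6.11% exceeded skin. Cxcl13 changed by 2.25 in muscle and 3.09 in skin, and its differences from bone did not pass (adjusted p = 0.645 and 0.98).

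Exon usage was tested as an age by probe set interaction within each gene, after the gene mean of each array was removed. Of 12458 genes with at least 3 probe sets above the level filter, 2487 were removed by a filter on the change of mean level between ages. This filter was looser than the adjusted test, which 662 of 15830 genes passed. Of the remaining 9971 genes, 56 (0.562%) had an adjusted p below 0.05. The 6 with the smallest adjusted p were Dhx9, an RNA helicase, 8030451F13Rik, Jmjd1c, a histone demethylase family member, Ank3, ankyrin G, Mtl5 and Laptm4b, a lysosomal membrane protein, with adjusted p from 0.000442 to 0.0035. In Dhx9 probe set 4864639 rose by 1.08 (log2) relative to its gene, from a level of 5.09 to 6.26. The 56 calls did not carry over to other tests. On simulated data with unequal spread the same F-test called 102 of 12371 unchanged genes. It found 37 of 84 genes with a planted change of 1 log2 in 1 probe set, and 54 of 61 at 2 log2. Mean levels were set equal between ages there, so the level filter acted differently. With the planted changes beside them, the 102 calls give no false call rate for the 56. That F-test takes a single spread for all probe sets of a gene. The diffSplice test of limma, run without removing the gene mean of each array, called 1 gene, Eny2. The part of that step in the lower count was not tested. When each of 115188 probe sets was tested with its own spread none passed, with 5.44% at an unadjusted p below 0.05 and a smallest adjusted p of 0.911. The count was 12 without 28-month replicate 5, 21 without 18-month replicate 3 or 28-month replicate 2, and 205 and 155 without 18-month replicates 1 and 2. Tnfsf11, the ligand RANKL of the osteoclast receptor, was among the 56 and is named after its values were seen. Its probe set 5267395 went from 4.97 to 7.86 in mean level while the gene changed by 0.45 ± 0.20 (adjusted p = 0.227), and relative to the gene 18-month replicate 4 lay at 1.32, within the 28-month range of 0.757 to 2.34.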

How the data were processed

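RNA of the tibia was hybridized to Affymetrix Mouse Exon 1.0 ST arrays. The deposited values are log2 probe-set signals that the authors made in Partek, with GC-adjusted RMA background correction, quantile normalization over the arrays, median polish and mm9 annotation. Quantile normalization sets every array to the same distribution, so values are relative to the other genes. The number of arrays, 5 per age, limits the precision.

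Of 194293 probe sets, 179614 (92.4%) carried 1 symbol in the platform annotation. Those of a gene were averaged (median 9 per gene), which gave 15830 genes, of which 13745 (86.8%) matched a current RefSeq symbol. Genes are named as annotated. Fits used limma 3.58.1 in R 4.3.3, with 1 mean for each of 13 groups over 65 arrays, so that all groups share the estimate of spread, and Benjamini-Hochberg adjustment over all genes. That spread includes tissues where a gene of bone or marrow can lie near the floor, as Ibsp did. Where a gene varies little in those tissues, its SE and adjusted p in bone come out smaller than bone arrays alone give. Fn3k had an adjusted p of 2.02e-06 with all groups and 0.0939 in the 10 arrays alone. In the fit of the 10 arrays 36 of the 85 printed genes no longer passed and 0 came to pass. The very small adjusted p of the fit of all groups carry this limit. Rose and fell mean an adjusted p below 0.05, and called adds a change of at least 1 on the log2 scale. Differences between tissues were contrasts of the same fit, which took arrays from the same mouse as independent. Exon usage was tested on the 10 arrays, using genes that kept 3 or more probe sets above a mean log2 of 3. This F-test assumes that all probe sets of a gene spread equally. Tested on simulated data where they did not, with equal mean levels and some planted changes, it also called 102 of 12371 unchanged genes. The scripts were tested on simulated data.

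The genes named were the 12 highest and 12 lowest called genes whose ages did not overlap, filled up by p where fewer, the 4 members of each list with the smallest p, the 6 genes of smallest adjusted p for exon usage, a few genes of the field whatever their values, and the 3 leading differences from each tissue. From the lists only some are printed. Members and lists were chosen with earlier results of these data known. Alternatives were the arrays in the fit, blocks, probe-set summary, level filter, normalization, weights, prior, and each array left out. Promoters were read from RefSeq (GRCm38.p6), a different build from that of the arrays, and matched by symbol.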

Additional observations from a re-analysis of the deposited data

Results flagged for a closer look

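In groups of 5 arrays, the gap of an extreme array to its nearest neighbour was set against the range of the group, over both ages of the 85 genes with printed values, which is 170 groups. Chance marks about 1 in 20 groups, and genes of one cell type are not independent. There were 22 such groups, 9 of them set by 28-month replicate 5. That array was lowest in Slc4a1 (3.90, others 10.8 to 11.8, gap 0.869 of the range), Klf1 (3.97, others 7.11 to 7.89, gap 0.801), Uros (4.01, others 6.58 to 7.24, gap 0.794), Fn3k (2.93, others 5.06 to 5.93, gap 0.712), Ypel4 (3.42, others 6.97 to 8.39, gap 0.713) and Cldn13 (4.82, others 9.31 to 10.1, gap 0.856). It was also lowest in Cdkn2a (3.98, others 4.27 to 4.35, gap 0.777) and Lmna (6.16, others 6.97 to 7.15, gap 0.811), and highest in Plod1 (7.85, others 7.49 to 7.57, gap 0.792).

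18-month replicate 1 set 8 groups. It was highest in Gzmk (4.61, others 3.19 to 3.33, gap 0.901), Gzmb (3.64, others 2.76 to 2.91, gap 0.824), Ccl8 (3.95, others 3.17 to 3.37, gap 0.744), Cxcl9 (5.80, others 4.28 to 4.70, gap 0.724) and 2010001M09Rik (9.69, others 5.70 to 6.52, gap 0.794). It was lowest in Dmp1 (6.32, others 8.41 to 9.17, gap 0.734), Lrp6 (7.07, others 7.37 to 7.47, gap 0.735) and Slc4a1 (11.4, others 11.7 to 11.9, gap 0.746). 18-month replicate 2 was highest in Ear6 (12.1, others 10.5 to 10.9, gap 0.774) and lowest in H2-Eb1 (9.66, others 10.1 to 10.3, gap 0.71). 28-month replicate 3 was highest in Gzmb (5.64, others 3.12 to 3.50, gap 0.849) and Cfd (11.1, others 7.13 to 8.19, gap 0.732), and 28-month replicate 1 was lowest in A4galt (5.33, others 6.42 to 6.69, gap 0.805).

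The difference between tissues was tested in limma for all 15830 genes. The 6 differences given here had the smallest adjusted p of those tests, 3 per tissue, among genes that passed in bone. The change in bone exceeded that in muscle by 1.70 for Havcr2 and 1.74 for Ctsc and lay below it for Ear6, at a difference of -2.98. It exceeded the change in skin by 2.10 for Havcr2, 1.92 for Mmp13 and 1.43 for Hgsnat.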

How the results depend on the processing

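Of the 85 genes with printed values, 75 passed the test, and 30 of these passed under every alternative planned for them. In the fit of the 10 arrays alone 36 of the 85 no longer passed, and in bone alone 23. Among the 36 were Ccl8, Ccl12, Oscar, Klrk1, Glb1, Bach2 and Ghr, with an adjusted p from 0.0535 to 0.121 in the 10 arrays. No change reversed in sign with a call. The total of 175 called genes was 88 in the fit of the 10 arrays alone, 113 with quantile normalization within bone, 662 with no fold threshold and 101 in bone alone without 28-month replicate 5, an alternative chosen after seeing the data. Leaving out single arrays gave 101 to 234, lowest without 28-month replicate 5. The 118 genes called higher ranged from 83 to 143 so. The 57 called lower ranged from 18, without 28-month replicate 5, to 91, without 28-month replicate 1 or 4. They were 16 in bone alone, 4 in the 10 arrays alone, 101 with probe sets of a mean log2 of at least 5, 18 with quantile normalization within bone, 33 with array weights, 12 in bone alone without 28-month replicate 5 and 25 without 18-month replicates 3 and 4, the last 2 chosen after seeing the data. The cause of these shifts was not tested.

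Genes that differed from muscle (1852) were 1314 to 2167 without single arrays. Those that differed from skin (1821) were 1463 to 2039, and 3295 with array weights. The 56 genes with changed exon usage became 1 with diffSplice, 0 with each probe set tested with its own spread (chosen after seeing the data), 19 with the stricter level filter, 95 with none, 376 with no removal by change of mean level, and 12 to 205 without single arrays.

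Replicate numbers did not pair the arrays. Deviations of arrays with the same number correlated at -0.0668, -0.158, -0.344, -0.153 and -0.197, and 0 of 5 numbers matched best with their own. With the replicate number as a block within tissue 161 genes were called, 112 higher and 49 lower, 1496 differed from muscle and 1468 from skin, and with a replicate block 29 genes had changed exon usage. With the mouse as a random block, at a consensus correlation of 0.0468, 174 were called. In that fit 2086 differed from muscle and 1961 from skin.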
